A study of Mus musculus with 4 samples.

Results

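The values below describe 8 transcription factors of chondrocytes (CHOs), *Sox9*, *Sox5*, *Sox6*, *Foxa2*, *Foxa3*, *Mef2c*, *Runx3* and *Nfatc1*, in droplet-based single-cell RNA-seq of long-bone stroma. They were taken by symbol, each symbol matching 1 of the 53703 genes in the files. The list itself uses no measured value, but it was drawn up with earlier results of these data known. The metaphyses of femora and tibiae gave the cells, from mice of both sexes on a C57BL/6 background at 12 weeks of age. They were released with collagenase and depleted of cells bearing hematopoietic lineage markers, CD45 or CD117. There were 4 libraries of 10x Chromium V3 chemistry, 2 of *Lats2*iΔEC mutants and 2 of littermate controls.

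The mutants carried *Lats2* lox/lox and *Cdh5*(PAC)-CreERT2, a tamoxifen-inducible Cre driven by a promoter of endothelial cells (ECs). Per the study's methods an mT/nG reporter was bred into mutants and controls alike, and which libraries carried it is not given in the sources used here. The controls carried no Cre, and both genotypes were given tamoxifen as juveniles by daily injection, although the labels of the controls read untreated. *Lats2* encodes a kinase of the Hippo pathway that restrains YAP1 and TAZ. The Cre is not driven in CHOs, so by design the cells described here kept their floxed *Lats2*. Whether a library pools several animals is not given in the sources used here, so p-values measure the spread between these libraries alone.

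SOX9 is the factor that specifies cartilage, and SOX5 and SOX6 are its partners of the SoxD family, which lack a strong activation domain of their own and help SOX9 to act at enhancers of cartilage matrix genes. As growth plate CHOs mature from resting and columnar cells to pre-hypertrophic (PHCHOs) and hypertrophic cells (HCHOs), the SOX program gives way to RUNX2 and RUNX3, to MEF2C, which with RUNX2 drives hypertrophy and *Col10a1*, and to FOXA2 and FOXA3, pioneer factors that act with them on genes of hypertrophic cartilage. NFATC1 is a calcineurin-dependent factor best known for osteoclast formation, and in joints it marks progenitors of articular cartilage.

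Of 24648 barcodes with at least 1000 UMIs and 800 genes that passed the further filters, 7170 were gated as CHOs by 13 markers, none of them among the 8 factors. They made up 38.6% ± 1.57 (SD, n = 2) of the mutant barcodes and 21.5% ± 0.714 (SD, n = 2) of the control barcodes. All 13 markers, *Col2a1* and *Acan* among them, were detected in the gated CHOs of every library. CHOs were split by zone markers into superficial-like, deep articular-like, resting and columnar side, growth plate columnar-like, pre-hypertrophic-like, hypertrophic-like, late hypertrophic-like and cycling cells, called by these names below without the ending. A zone is a range of marker scores and not a cell type, and 14.4% of the zoned cells lay near a boundary. The libraries held 69636600 to 85899079 UMIs in all, and any pair of libraries shared at most 2 CHO barcodes. From the UMIs of *S100a8*, *S100a9*, *Hba-a1*, *Hbb-bs*, *Elane* and *Mpo*, free RNA was put at 0.896% to 1.46% of the UMIs of CHOs. These genes are also among the 12 hematopoietic markers compared below. Free RNA at that share would give at most 0.86% of the level of any of the 8 factors there. *Lats2* itself stood at 91.4 and 96.0 counts per 1000000 UMIs (CPM) in ECs of the mutant libraries and at 133 and 122 CPM in those of the controls. Its counts cover the whole gene, with the part that is not deleted. In CHOs *Lats2* stood at 39.3 and 42.6 CPM against 43.8 and 43.2 CPM.

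The zones were filled unequally. Growth plate columnar cells numbered 422 in the mutant and 900 in the control libraries, and late hypertrophic cells 930 and 92. On average 13.2% of mutant and 6.38% of control CHOs took no zone and entered only the sums over all CHOs. Of all barcodes, 24.3% in the mutants and 16.1% in the controls passed no cell type gate. The late hypertrophic cells of the mutants also stood apart in quality, with medians of 9136 and 8572 UMIs a cell against 15701 and 16875 in the controls, and of 0.416% and 0.559% mitochondrial UMIs against 4.17% and 4.20%. When all CHOs were clustered, 91.3% of the late hypertrophic cells of the mutants fell in 1 cluster and 75.0% of those of the controls in another. The late gate used *Ptgs2*, *Pde11a* and *Loxl4* beside the hypertrophic markers, and these genes were among the leading genes of that mutant cluster. In the columnar zone too, the leading 2 clusters of the controls (55.4% and 25.7% of their cells) were not those of the mutants (30.8% and 26.3%). In the resting zone the leading 2 clusters of the controls (39.1% and 19.9% of their cells) were not those of the mutants (32.3% and 30.8%). In the hypertrophic zone 43.3% of the mutant cells lay in the cluster of the mutants' late cells and 49.4% of the control cells in that of the controls' late cells, with medians of 2.46% and 3.01% mitochondrial UMIs in the mutants and 4.43% and 4.51% in the controls. Superficial, deep articular and cycling cells had the same 2 leading clusters in both genotypes, and PHCHOs the same first one (40.9% of mutant and 77.9% of control cells). A further 27.9% of the mutant PHCHOs lay in the cluster of the mutants' late cells, which held only 2 and 6 cells of the control libraries among its 1199. The part of these differences in the results of each zone was not tested.

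**Figure D1:**
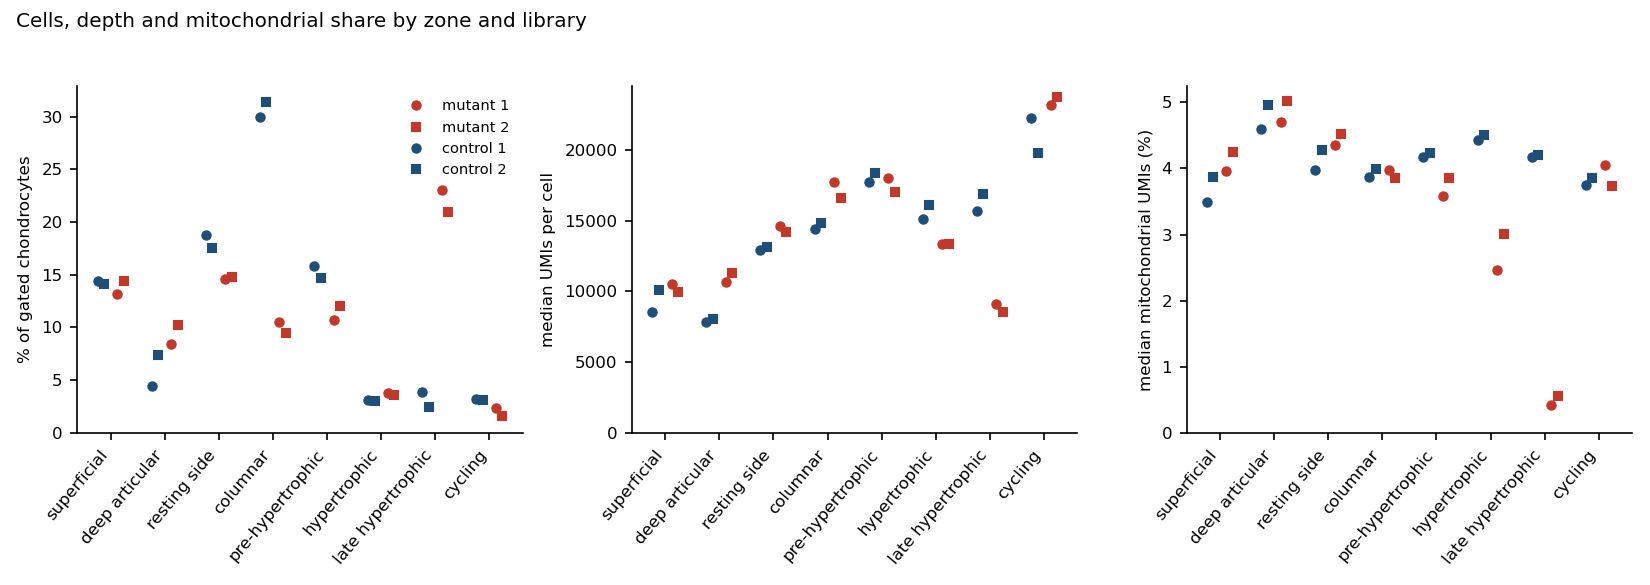
Share of gated CHOs in %, median UMIs per cell and median mitochondrial share (y axes) in each zone (x axis), with 1 point per library, coloured by genotype. Late hypertrophic cells of both mutant libraries have under 1% mitochondrial UMIs, whereas those of both control libraries have over 4%.

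The members differ in the size of their loci (GRCm39, GENCODE annotation). *Sox9* lies at chr11:112673009-112678586 on the plus strand, a locus of 5.578 kb with 3 exons in its canonical transcript. *Sox5* (chr6:143774151-144727703) and *Sox6* (chr7:115070106-115638860), both on the minus strand, span 953.6 and 568.8 kb with 15 exons each. *Foxa2* (chr2:147884797-147889005) and *Foxa3* (chr7:18747209-18757471), also on the minus strand, span 4.209 and 10.26 kb. *Mef2c* (chr13:83652064-83815555) and *Runx3* (chr4:134847952-134905301) lie on the plus strand over 163.5 and 57.35 kb. Counting covered introns as well as exons. *Sox5* overlaps 11 annotated genes, 2 of them on its own strand, and *Sox6* overlaps 5, 1 of them on its own strand, so single reads there could belong to a neighbour.

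*Sox5* and *Sox6* both fell in columnar cells and PHCHOs of the mutants, so the 300 bases around the start of their canonical transcripts, 250 before and 50 after it, are shown 5′ to 3′ on the minus strand of GRCm39. Capitals mark matches to short motifs, searched on both strands, of SOX (ACAATG), RUNX (TGTGGT), FOX (TGTTTA) and NFAT (GGAAAA) factors, and of MEF2. The *Sox5* window is chr6:144155920-144156219 and the *Sox6* window chr7:115445353-115445652.
Sox5: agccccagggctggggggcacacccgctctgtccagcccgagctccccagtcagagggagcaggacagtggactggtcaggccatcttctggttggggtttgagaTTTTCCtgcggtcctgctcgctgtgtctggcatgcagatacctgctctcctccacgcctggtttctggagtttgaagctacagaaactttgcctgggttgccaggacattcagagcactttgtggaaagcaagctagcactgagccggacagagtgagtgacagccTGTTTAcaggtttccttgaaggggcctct
Sox6: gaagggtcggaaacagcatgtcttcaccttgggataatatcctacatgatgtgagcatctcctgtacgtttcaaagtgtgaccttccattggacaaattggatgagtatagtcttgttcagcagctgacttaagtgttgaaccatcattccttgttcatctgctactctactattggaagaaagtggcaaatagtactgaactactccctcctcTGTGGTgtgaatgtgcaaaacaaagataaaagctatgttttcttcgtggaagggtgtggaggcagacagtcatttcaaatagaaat
The *Sox5* window held 1 FOX match and 1 NFAT match, the latter on the opposite strand, and the *Sox6* window 1 RUNX match, none of which overlap. None of the other windows searched (*Sox9*, *Foxa2*, *Foxa3*, *Mef2c*, *Runx3*) held a match. Among the same windows of 21770 protein-coding genes, 10.83% held the SOX, 15.34% the RUNX, 12.56% the FOX, 24.58% the NFAT and 1.778% the MEF2 motif. The *Sox5* window was 57.67% G and C and the *Sox6* window 41.33%. A match is a run of letters and was not tested for binding.

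Next the 8 factors were followed along the zones. For each library, the UMIs of all cells of a zone were summed and given as CPM, a level that is compared here only within 1 gene. Neighbouring zones were compared with edgeR (quasi-likelihood test, library as block, both genotypes together, Benjamini-Hochberg adjusted p over 15012 genes, called at 0.05 or less).

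*Sox9* was lowest late in maturation. In controls it stood at 794 and 736 CPM in superficial, 527 and 570.1 CPM in deep articular and 722 and 715 CPM in resting cells. It reached 992 and 955 CPM in columnar cells, 799 and 805 CPM in PHCHOs, 481 and 577 CPM in hypertrophic and 493 and 451 CPM in late hypertrophic cells. *Sox9* was lower in deep articular than in superficial cells (log2 fold change −0.35, adjusted p = 0.0338), the only factor called in that step, in which 10.4% of all genes were called. It was higher in columnar than in resting cells (0.48, adjusted p = 0.00167), lower in hypertrophic cells than in PHCHOs (−0.42, adjusted p = 0.0216) and lower again in late hypertrophic cells (−0.35, adjusted p = 0.0376). *Sox6* fell in the step to hypertrophic cells too (−0.43, adjusted p = 0.0197), where 3.96% of genes were called and *Sox9* and *Sox6* were the 2 factors called. In the step to late hypertrophic cells *Sox9* was alone, with 8.97% of genes called. There *Sox9* went from 481 to 493 CPM in control replicate 1 and from 577 to 451 CPM in control replicate 2. It fell in both mutant libraries. With cells near the boundaries left out or without a filter on low counts, the steps of *Sox9* from superficial to deep articular cells and from hypertrophic to late hypertrophic cells were no longer called. The *Sox6* step to hypertrophic cells lost its call whichever library was left out (adjusted p between 0.0633 and 0.122 in edgeR). The *Sox9* steps to deep articular and to hypertrophic cells lost theirs without mutant replicate 1 or either control, and that to late hypertrophic cells without either mutant or control replicate 2. *Sox5* passed the test in no step. Its control levels lay between 658 CPM (late hypertrophic) and 1191 CPM (columnar), and those of *Sox6* between 461 CPM (late hypertrophic) and 846 CPM (columnar).

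*Runx3* separated articular from growth plate cells. Its control levels were 14.2 and 14.8 CPM in superficial and 17.5 and 19.4 CPM in deep articular cells, and 264 and 268 CPM in resting cells. The step from deep articular to resting cells was 3.5 (log2, adjusted p = 2.56e-13), in which 18.6% of genes and 3 of the 8 factors were called. The others were *Foxa3* (0.64, adjusted p = 0.0374) and *Mef2c*, which was lower in resting cells (−0.85, adjusted p = 0.00536). The *Foxa3* step was lost with cells near the boundaries left out and without mutant replicate 1 or either control, and the *Mef2c* step without control replicate 2. Cycling cells aside, *Runx3* was highest in columnar cells (358 and 347 CPM in controls). It was lower in PHCHOs (224 and 185 CPM, log2 fold change −0.65, adjusted p = 0.00223).

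*Mef2c*, *Foxa2* and *Foxa3* rose toward hypertrophy in the same steps. In controls *Mef2c* went from 82.3 and 70.4 CPM in resting cells to 279 and 280.4 CPM in columnar cells and 1725 and 1588 CPM in PHCHOs, with log2 fold changes of 1.97 (adjusted p = 6.97e-08) and 2.31 (adjusted p = 3.37e-09). *Foxa2* was near absent from superficial cells (0 and 1.99 CPM in controls) and stood at 4.94 and 5.42 CPM in resting cells, 21.2 and 21.7 CPM in columnar cells and 61.5 and 58.1 CPM in PHCHOs. Its steps were 2.07 (adjusted p = 2.39e-05) and 1.43 (adjusted p = 7.07e-05). *Foxa3* took the same steps with 0.84 (adjusted p = 0.000955) and 0.86 (adjusted p = 0.000377). The step from resting to columnar cells called 4 of the 8 factors and 13.5% of all genes, and that to PHCHOs 4 and 16.5%. None of these 3 genes was called in a later step, in tests that pool the genotypes. From hypertrophic to late hypertrophic cells *Foxa2* rose in both control libraries and fell in both mutant libraries, with levels given below. *Nfatc1* differed in no step, with control levels from 89.0 CPM in cycling cells to 249 CPM in superficial cells.

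**Figure D2:**
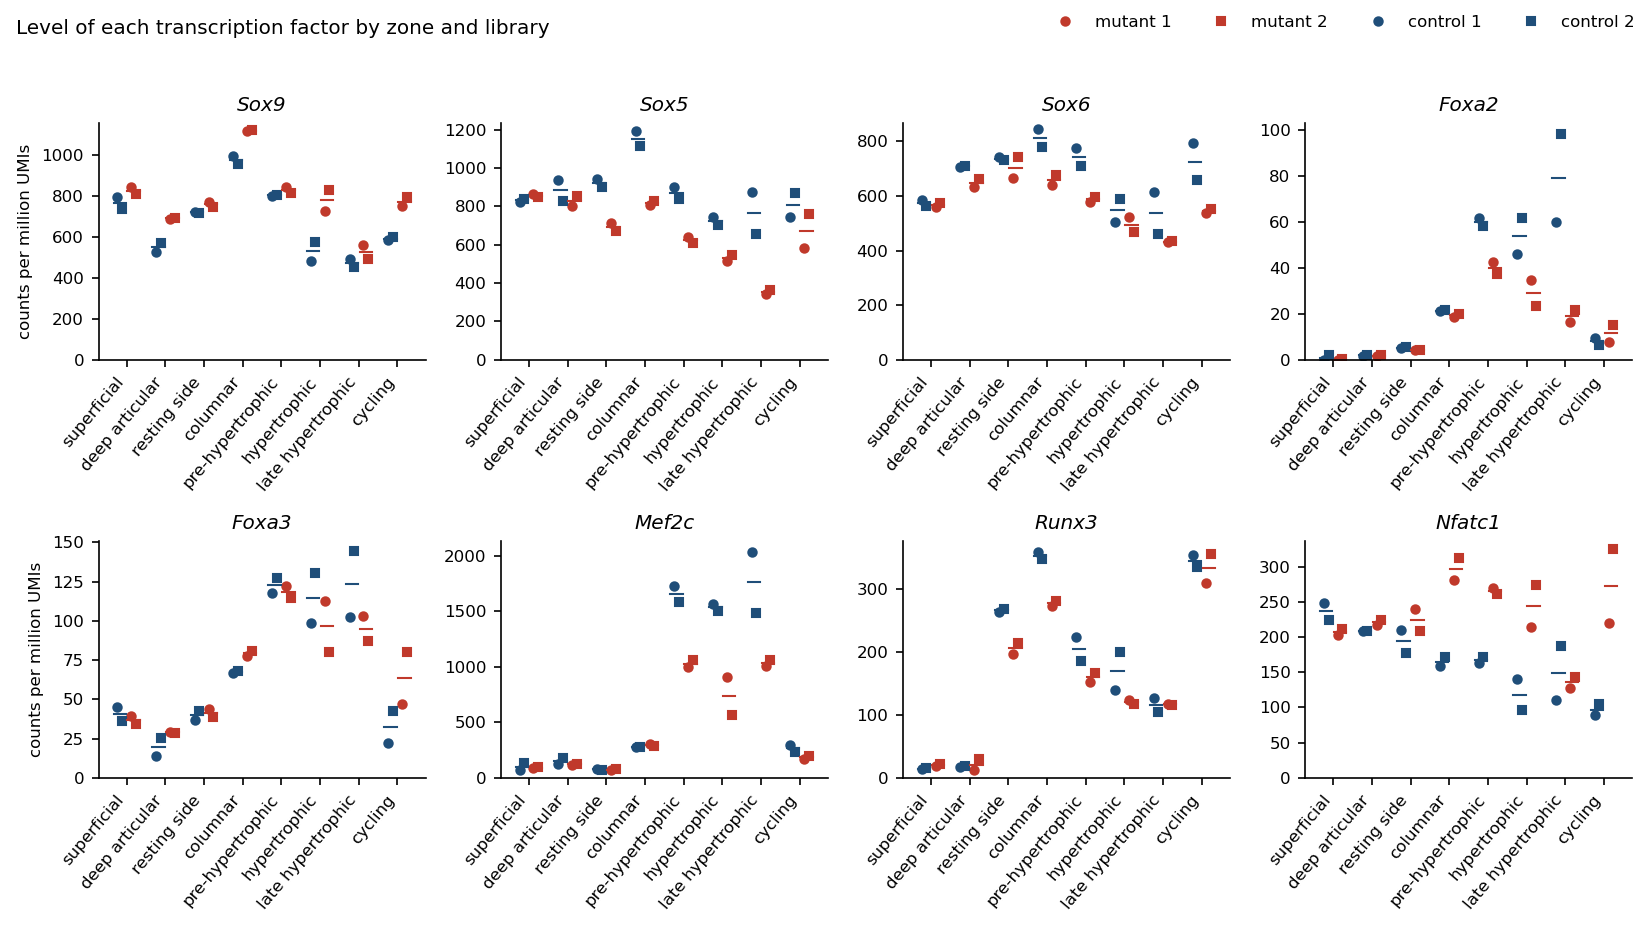
Level of each factor (y axis, CPM summed per library and zone) across the zones of CHOs (x axis), with 1 point per library and colours for the genotypes. *Mef2c* and *Foxa2* climb from columnar to pre-hypertrophic cells, *Runx3* is low in both articular zones, and the mutant points of *Sox5* lie under the control points from resting to late hypertrophic cells.

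The main question was how the factors differ between CHOs of mice with *Lats2* deleted in ECs and CHOs of controls. Sums over all gated CHOs were compared with edgeR's quasi-likelihood test over 18441 genes, and fold changes are mutant over control on the log2 scale, with the standard error (SE). Of the 8 factors 6 were called, 5 lower and 1 higher in the mutants, in a comparison that called 43.8% of all genes tested. From such a sum alone, fewer cells that express a gene and less RNA per cell cannot be told apart.

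*Runx3*, a maturation factor, stood at 145 and 149.5 CPM in the mutant libraries and at 244 and 232 CPM in the controls (−0.64, SE 0.0446, adjusted p = 7.49e-07). *Foxa2* stood at 14.8 and 14.7 CPM against 24.9 and 25.0 CPM (−0.70, SE 0.0686, adjusted p = 1.09e-05). *Sox5* stood at 656 and 669 CPM against 987 and 942 CPM (−0.48, SE 0.0423, adjusted p = 4.32e-06). In these 3 genes both mutant libraries lay below both controls with a wide gap. *Sox6* was at 579 and 607 CPM against 765 and 717 CPM (−0.26, SE 0.0457, adjusted p = 0.000783), and *Mef2c* at 456 and 449 CPM against 617 and 542 CPM (−0.30, SE 0.0549, adjusted p = 0.00112). *Nfatc1* was the factor that rose, from 176 and 177 CPM in the controls to 222 and 229.7 CPM in the mutants (0.41, SE 0.0432, adjusted p = 1.79e-05). The groups of these 3 genes did not overlap either. How many of all genes lay apart in this way was not computed. For *Mef2c* the share of CHOs with a UMI ran against its level, at 70.2% and 69.1% in the mutants and 62.2% and 62.8% in the controls, and at 47.9% and 47.4% against 39.8% and 41.2% after each cell was thinned to 3000 UMIs. In PHCHOs the thinned shares were 84.6% and 84.7% against 92.1% and 91.7%.

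*Sox9* and *Foxa3* overlapped between genotypes. *Sox9* stood at 791 and 769 CPM against 799.9 and 789 CPM (0.03, SE 0.0419, adjusted p = 0.584), and *Foxa3* at 71.4 and 64.0 CPM against 67.2 and 71.5 CPM (0.02, SE 0.0624, adjusted p = 0.816). Both fold changes turned sign, to −0.03 and −0.04, when levels were compared as plain CPM without TMM, the trimmed-mean scaling of library sizes used by edgeR. These sums mix zones in unlike shares. With equal numbers of cells drawn per zone from each library, from 35 cycling to 263 resting cells, *Sox9* was called higher in the mutants (0.21, adjusted p = 0.00173) and *Sox6* was no longer called (−0.12, adjusted p = 0.057), while the other 5 calls held. Their sizes in that setting are not given here, and a call that held does not show that its size did. Between plain mean CPM, *Runx3* had a log2 ratio of −0.69 in all CHOs. In single zones that ratio ran from −0.50 (hypertrophic) to 0.48 (superficial).

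Markers of other cell types differed between genotypes in the same CHOs. A marker was counted as higher or lower when both mutants lay above or below both controls. The share of all genes lying apart in this way was not computed. Such counts, here and below, therefore stand without a background. The 12 hematopoietic markers summed to 336 and 422 CPM in all mutant CHOs and to 136 and 141 CPM in the controls, 5 of the 12 higher and 5 lower in both mutants, with 2 at 0 in mutant replicate 1. Their sums were higher in both mutants in every zone but cycling cells (343 and 432 against 350.2 and 214 CPM), and outside that zone ran from 279 to 471 CPM in the mutants and from 76.8 to 198 CPM in the controls. The 7 markers of osteoblasts (OBs) summed to 1142 and 1097 CPM against 1666 and 1650.0 CPM, 5 of the 7 lower in both mutants and none of the 7 at 0. In superficial (103 and 108 against 290.2 and 430.2 CPM), deep articular (139.8 and 189.6 against 347 and 351 CPM) and resting cells (255 and 359.6 against 504 and 455 CPM) their sums were lower in both mutants, and in columnar, pre-hypertrophic, hypertrophic and cycling cells the sums overlapped. The 6 fibroblast markers summed to 155 and 158 CPM against 121 and 137 CPM, 2 of the 6 higher and 1 lower. They were lower in both mutants in superficial (622 and 528 against 754 and 787 CPM) and deep articular cells (354 and 276 against 553 and 430.1 CPM). In resting cells they summed to 142 and 136 CPM against 56.2 and 81.6 CPM, 2 of the 6 higher, and in PHCHOs to 17.3 and 24.9 CPM against 4.71 and 1.7 CPM, 4 of the 6 higher. The leading cluster of mutant resting cells (32.3%) scored highest for fibroblasts among the other types, at 2.28 times the mean of all CHOs. So did the leading clusters of superficial (4.28 times) and deep articular cells (2.27 times), which the genotypes shared. The 13 gate markers of CHOs summed to 52524 and 51528 CPM against 69272 and 68248 CPM, 11 of the 13 lower and 2 higher in both mutants. The 7 markers of bone marrow stromal cells (BMSCs) summed to 583 and 657 CPM against 465 and 555 CPM, 2 of the 7 higher and 5 lower. The sums of EC (14.8 and 18.9 against 21.4 and 18.2 CPM), smooth muscle (13.0 and 16.7 against 12.4 and 9.77 CPM) and osteoclast markers (57.1 and 60.7 against 61.9 and 66.7 CPM) were low in all CHOs of either genotype. *Runx3* stood at 0.604 to 3.91 CPM in gated fibroblasts, and *Sox5* at 330.0 to 437 CPM. The part of these markers in the results was not tested.

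**Figure D3:**
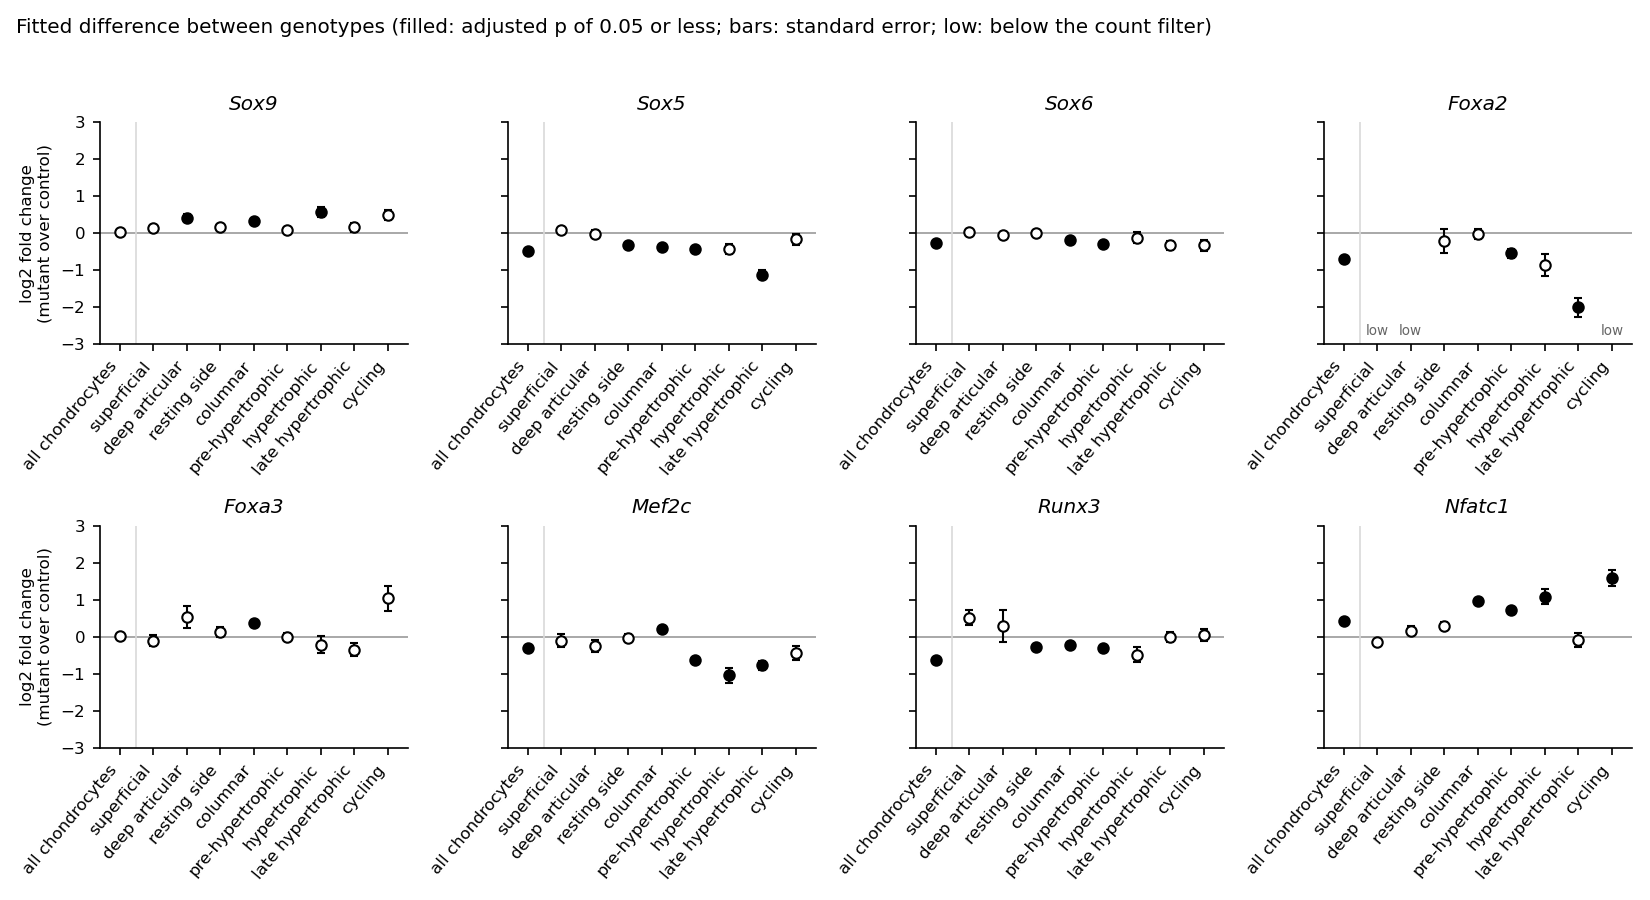
Fitted log2 fold change of mutant over control (y axis) of each factor in all CHOs and in each zone (x axis), with bars for the standard error and filled points for an adjusted p of 0.05 or less. *Nfatc1* is above 0 from resting to hypertrophic cells and near 0 in late hypertrophic cells, and *Sox5* is at −0.33 or lower from resting to late hypertrophic cells.

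Within zones, *Sox5* gave the most regular difference of the SOX trio. In superficial cells its genotypes lay close together, with 866 and 847 CPM in the mutants and 823 and 841 CPM in the controls. In resting cells, whose leading clusters differed by genotype, it stood at 712 and 670.2 CPM against 943 and 899 CPM (−0.33, SE 0.0687, adjusted p = 0.00426), 1 of 2 factors called in a zone with 13.4% of genes called. In columnar cells, whose leading clusters differed too, it stood at 806 and 827 CPM against 1191 and 1115 CPM (−0.38, SE 0.0508, adjusted p = 8.03e-05), 1 of 7 factors called where 24.5% of genes were. The groups did not overlap in either zone. In PHCHOs *Sox5* stood at 639.7 and 610.4 CPM against 902 and 838 CPM (−0.43, SE 0.0672, adjusted p = 0.000919), 1 of 6 factors called beside 20.4% of genes. Hypertrophic cells, in which 10.1% of genes and 3 factors were called, had 516 and 545 CPM against 744 and 704 CPM, which missed the threshold (−0.43, SE 0.128, adjusted p = 0.062). The widest difference was in late hypertrophic cells, whose genotypes lay mostly in different clusters. There 28.2% of genes and 3 factors were called, and *Sox5* stood at 342 and 365 CPM against 877 and 658 CPM (−1.13, SE 0.125, adjusted p = 1.42e-05 in edgeR). Without a filter on low counts this last call was lost, as were those of the other factors called in the zone. In that setting 441 genes were still called there.

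*Sox6* moved less. It fell in columnar cells, from 846 and 781 CPM in the controls to 638 and 678 CPM in the mutants (−0.18, SE 0.0558, adjusted p = 0.0271), and in PHCHOs, from 775 and 711 CPM to 578 and 596 CPM (−0.29, SE 0.0654, adjusted p = 0.00813). In late hypertrophic cells it stood at 431 and 434 CPM against 616 and 461 CPM and was not called (−0.33, adjusted p = 0.0697). In superficial and resting cells the groups overlapped. The columnar call was lost without mutant replicate 1, without control replicate 1 and with DESeq2.

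*Sox9* went the other way. It rose in columnar cells, which differed in leading clusters, from 992 and 955 CPM in the controls to 1115 and 1120.5 CPM in the mutants (0.32, SE 0.0481, adjusted p = 0.000201). *Sox9* also rose in hypertrophic cells, which differed in clusters and mitochondrial share, from 481 and 577 CPM to 727 and 828 CPM (0.57, SE 0.144, adjusted p = 0.0316). In deep articular cells it stood at 689 and 693 CPM against 527 and 570.1 CPM (0.40, SE 0.0997, adjusted p = 0.0402), as the only factor called in a zone where 3.3% of genes were. In these cells the CHO gate markers summed to 33916 and 37745 CPM against 24775 and 26093 CPM, 8 of the 13 higher in both mutants, the BMSC markers to 1585 and 1632 CPM against 1916 and 1852 CPM, 4 of the 7 lower, and the median cell held 10702 and 11277 UMIs against 7851 and 8036. The part of these in the *Sox9* call was not tested. The mutant libraries lay above the controls in these 3 zones without overlap. Superficial cells (843 and 807 against 794 and 736 CPM), resting cells (769.8 and 745 against 722 and 715 CPM), PHCHOs (844 and 814 against 799 and 805 CPM) and late hypertrophic cells (559 and 494 against 493 and 451 CPM) did not pass the test. In each of these zones too both mutants lay above both controls. The zones come from the same 4 libraries, and the share of all genes lying apart in this way was not computed. Cycling cells did not pass the test either, with a log2 ratio of 0.39 between plain mean CPM. Only the columnar call held when each library was left out in turn. The deep articular call was lost without either mutant library, and the hypertrophic call without mutant replicate 2 or either control.

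Both SoxD loci span over 500 kb, so genes of at least that span were set beside them. In all CHOs the 231 such genes tested had a median fold change of −0.06 against −0.00 over all genes, with 37 called higher and 85 lower. In late hypertrophic cells the median of 124 such genes was −0.39 against 0.02 over all genes, with 18 called higher and 41 lower. In columnar cells the median of 154 such genes was −0.18, with 22 called higher and 49 lower. In PHCHOs, where both SoxD genes were called lower, the median was −0.04, with 32 called higher and 32 lower, and in hypertrophic cells −0.06, with 9 higher and 6 lower. The fold changes of *Sox5* in all 5 places lay below these medians. *Sox6* lay below the median in all CHOs (−0.26) and in PHCHOs (−0.29), at it in columnar cells (−0.18) and above it in late hypertrophic cells (−0.33). The part of locus length in the result was not tested.

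The share of CHOs with all 3 SOX genes detected was lower in the mutants. After each cell was thinned to 3000 UMIs, which left out 161 mutant and 59 control cells with fewer, *Sox9*, *Sox5* and *Sox6* were all detected in 43.2% and 44.3% of mutant and 62.1% and 61.6% of control CHOs. In PHCHOs the shares were 43.9% and 44.4% against 60.6% and 60.1%, and in late hypertrophic cells 21.1% and 18.9% against 38.9% and 40%. In superficial cells they overlapped, at 51.5% and 53.5% against 54.1% and 52.2%. They also overlapped in deep articular (49.4% and 47.5% against 55.0% and 42.9%) and cycling cells (48.9% and 54.5% against 45.7% and 59.6%). The shares over all CHOs mix zones that the genotypes held in unlike numbers. Before thinning, *Sox9* had a UMI in 92.6% of mutant and 96.4% of control CHOs. After thinning, *Sox9* was detected in 77.6% and 82.4%, *Sox5* in 71.2% and 89.0% and *Sox6* in 71.5% and 83.3% of them. In ECs, which should lack them, the thinned shares were 2.03% and 0.913% for *Sox9*, 2.87% and 2.51% for *Sox5* and 5.88% and 4.56% for *Sox6*. Median depths were 11945 to 13852 UMIs in CHOs and 5195 to 6587 in ECs. These shares were not tested. An exact permutation test of 2 libraries against 2 cannot give a p under 0.333.

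**Figure D4:**
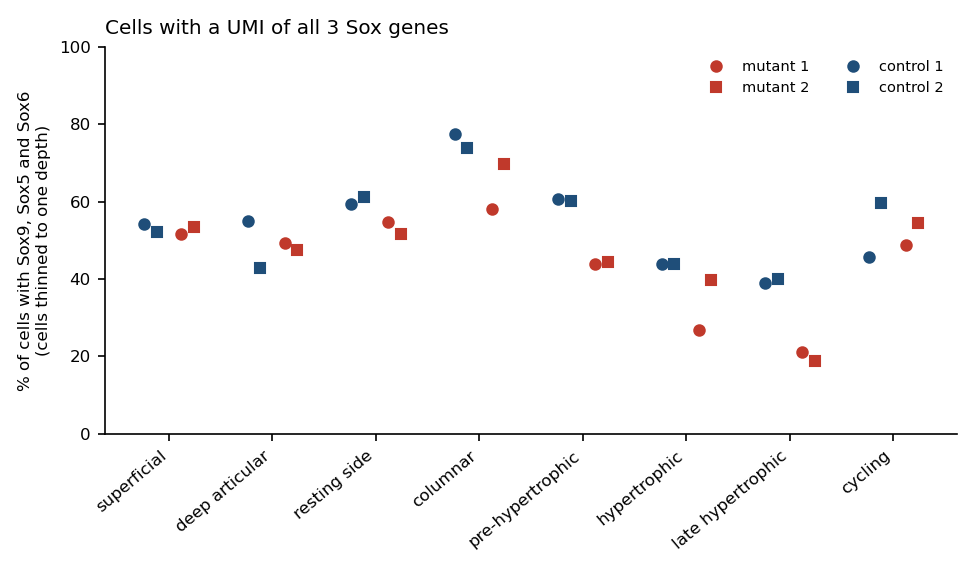
Percentage of cells with *Sox9*, *Sox5* and *Sox6* all detected after thinning to 3000 UMIs (y axis) in each zone of CHOs (x axis), with 1 point per library coloured by genotype. The genotypes overlap in superficial, deep articular and cycling cells, and the mutant points lie lower in PHCHOs and late hypertrophic cells.

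Of the maturation factors, *Mef2c* fell where its level is highest. In PHCHOs it stood at 1001 and 1059 CPM in the mutants and at 1725 and 1588 CPM in the controls (−0.64, SE 0.0633, adjusted p = 3.63e-05). In hypertrophic cells it stood at 907 and 562 CPM against 1568 and 1504 CPM (−1.04, SE 0.204, adjusted p = 0.0101), and in late hypertrophic cells at 1005 and 1060.5 CPM against 2035 and 1488 CPM (−0.77, SE 0.118, adjusted p = 0.000258). In none of these 3 zones did the genotypes overlap. The call in PHCHOs was lost without either mutant library. That in hypertrophic cells was lost without either control and with cells near a zone boundary left out. Without a filter on low counts the hypertrophic and late hypertrophic calls were lost. In columnar cells *Mef2c* went slightly the other way, with 305 and 283 CPM against 279 and 280.4 CPM (0.19, SE 0.0638, adjusted p = 0.0391). That call was lost with DESeq2, without a filter, and without mutant replicate 1 or either control.

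*Foxa2* fell in PHCHOs, from 61.5 and 58.1 CPM in the controls to 42.4 and 37.1 CPM in the mutants (−0.55, SE 0.115, adjusted p = 0.00582). It fell most in late hypertrophic cells, from 60.0 and 97.9 CPM to 16.5 and 21.5 CPM (−2.01, SE 0.251, adjusted p = 4.27e-05). These late values rest on 78 and 100 UMIs in the mutant and 51 and 59 in the control sums. In hypertrophic cells it stood at 34.9 and 23.3 CPM against 46.0 and 61.5 CPM and was not called (−0.86, adjusted p = 0.0999). The groups were apart in all 3 zones. In columnar cells they lay close, at 18.7 and 20.1 CPM against 21.2 and 21.7 CPM (−0.02, adjusted p = 0.937). Its relative *Foxa3* was called in columnar cells alone, at 77.9 and 81.0 CPM in the mutants and 66.9 and 68.0 CPM in the controls (0.36, SE 0.0839, adjusted p = 0.00628), and not with DESeq2. In PHCHOs *Foxa3* overlapped, with 122 and 115 CPM against 118 and 127 CPM (adjusted p = 0.979).

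*Runx3* fell in resting cells (197 and 214 CPM against 264 and 268 CPM, −0.29, SE 0.0839, adjusted p = 0.0313), in columnar cells (273 and 280.0 CPM against 358 and 347 CPM, −0.23, SE 0.0595, adjusted p = 0.012) and in PHCHOs (152 and 167 CPM against 224 and 185 CPM, −0.31, SE 0.0923, adjusted p = 0.034). The groups did not overlap, but none of these 3 calls held with DESeq2. The resting call was also lost without mutant replicate 1 or control replicate 2, and the columnar call without control replicate 1. That in PHCHOs was lost without either mutant library or without control replicate 1. In late hypertrophic cells *Runx3* stood at 117 and 116 CPM against 127 and 104 CPM and overlapped.

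Late hypertrophic cells differed by genotype in other ways than the factors, as given above for depth, mitochondrial share and clusters. The 7 markers of OBs, lower in all CHOs of the mutants as well, summed here to 257 and 184 CPM in the mutants and to 1075 and 1375 CPM in the controls, 5 of the 7 lower in both mutants, with 1 at 0 in control replicate 2. The 7 BMSC markers summed to 79.5 and 101 CPM against 158 and 317 CPM, 4 of the 7 lower and 1 higher, and the 13 CHO gate markers to 53475 and 53818 CPM against 85708 and 78868 CPM, 11 of the 13 lower and 1 higher. The 12 hematopoietic markers, higher in most zones of the mutants as given above, summed here to 389 and 471 CPM against 198 and 76.8 CPM, 3 of the 12 higher and 1 lower in both mutants, with 5, 1, 7 and 7 of them at 0. The part of these differences in the fall of *Sox5*, *Foxa2* and *Mef2c* was not tested.

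*Nfatc1*, a locus of 107 kb on the minus strand (chr18:80649266-80756295), rose in 4 zones. In columnar cells, whose leading clusters differed by genotype, it stood at 281 and 312 CPM in the mutants and at 158 and 172 CPM in the controls (0.97, SE 0.0718, adjusted p = 2.45e-07). In PHCHOs it stood at 269.6 and 261 CPM against 163 and 172 CPM (0.71, SE 0.0768, adjusted p = 7.13e-05) and in hypertrophic cells at 214 and 274 CPM against 139.7 and 95.9 CPM (1.08, SE 0.203, adjusted p = 0.00852). In cycling cells, the smallest zone, it stood at 221 and 325 CPM against 89.0 and 105 CPM (1.58, SE 0.210, adjusted p = 0.00136) and was the 1 factor called beside 4.92% of genes. *Foxa3* stood at 47.0 and 80.4 CPM against 22.3 and 42.7 CPM in cycling cells and was not called (1.04, SE 0.337, adjusted p = 0.110). In all 4 zones both mutant libraries lay above both controls. *Nfatc1* was not called in resting cells (239 and 209 CPM against 209.8 and 178 CPM, 0.29, adjusted p = 0.0535), and in late hypertrophic cells the genotypes overlapped at 128 and 143 CPM against 111 and 187 CPM. In superficial cells it stood at 204 and 212 CPM against 249 and 225 CPM (−0.15, adjusted p = 0.463).

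Superficial cells had none of the 7 factors tested called by edgeR (*Foxa2* was below the count filter), where 2.72% of genes were called. *Runx3* alone had an unadjusted p under 0.05 there, and DESeq2 called none. All 6 calls in PHCHOs were lost when either mutant library was left out, with adjusted p between 0.0803 and 0.345 in edgeR, and at most 16 genes were then called in the zone, against 2476 with all libraries. The 3 calls in hypertrophic cells were lost without either control, where at most 20 genes were called against 833, and with cells near a zone boundary left out, 50.8% of this zone. Scaling by TMM raised fold changes by 0.12 in columnar cells and by 0.18 in hematopoietic cells relative to plain CPM, and no call turned sign between these scales.

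Whether the genotype effect differs between zones was tested in 1 edgeR fit over all zones, in which 15% of 15012 genes were called. Of the 8 factors 5 were called, *Nfatc1* (adjusted p = 1.91e-05), *Sox5* (adjusted p = 3.16e-05), *Foxa2* (adjusted p = 0.00142), *Mef2c* (adjusted p = 0.0168) and *Sox9* (adjusted p = 0.0329). *Foxa3* (adjusted p = 0.0591), *Runx3* (adjusted p = 0.181) and *Sox6* (adjusted p = 0.287) were not. *Sox9* lost its call without mutant replicate 1, mutant replicate 2 or control replicate 1, *Foxa2* without control replicate 2, and *Mef2c* without mutant replicate 2 or control replicate 1.

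The factors are not all particular to cartilage, so their sums in other gated types were compared in the same way. *Mef2c*, which acts in vessels, muscle and bone as well, fell in ECs from 554 and 512 CPM in the controls to 388 and 378 CPM in the mutants (−0.40, adjusted p = 0.000406), 1 of 3 factors called beside 36.4% of genes. It also fell in smooth muscle cells (SMCs), from 555 and 518 CPM to 362 and 337 CPM (−0.57, adjusted p = 6.12e-05), and in BMSCs, from 91.3 and 108 CPM to 75.2 and 74.2 CPM (−0.40, adjusted p = 0.00301). In OBs it stood at 631 and 734 CPM against 778 and 758 CPM (−0.13, adjusted p = 0.401). The groups did not overlap in any of the 4 types.

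Outside CHOs the SoxD pair fell in SMCs, where 28.1% of genes and 3 factors were called. *Sox5* stood at 533 and 514 CPM against 1113 and 991 CPM (−0.96, SE 0.0765, adjusted p = 2.45e-07) and *Sox6* at 96.2 and 95.2 CPM against 314 and 291 CPM (−1.61, SE 0.0930, adjusted p = 8.85e-09). Both genes were about as far apart in each pair of libraries, yet their calls and that of *Mef2c* were lost without mutant replicate 1 (adjusted p between 0.126 and 0.134 in edgeR). The median of 132 genes of at least 500 kb was −0.40 in SMCs. SMC-gated cells made up 7.64% of the mutant and 4.07% of the control barcodes on average, and were not split into subtypes. A change in the mix of SMCs and a change per cell therefore cannot be told apart in these sums. In OBs *Sox6* went the other way, from 34.0 and 41.8 CPM to 50.7 and 64.4 CPM (0.65, SE 0.143, adjusted p = 0.0151), the only factor called beside 3.72% of genes, and not with DESeq2, without mutant replicate 2 or without control replicate 1.

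In BMSCs, where 18% of genes and 3 factors were called, *Sox9* stood at 52.3 and 39.7 CPM against 30.5 and 29.8 CPM (0.61, SE 0.117, adjusted p = 0.000521) and *Runx3* at 40.2 and 41.6 CPM against 57.6 and 56.3 CPM (−0.46, SE 0.0954, adjusted p = 0.00127). None of the 3 calls in BMSCs held without either mutant library or without a filter on low counts, that of *Mef2c* was lost without control replicate 2 as well, and those of *Mef2c* and *Runx3* were lost with DESeq2. *Nfatc1* rose in ECs from 60.2 and 50.9 CPM to 66.8 and 74.6 CPM (0.43, adjusted p = 0.00488), a call lost without control replicate 2. *Sox9* in ECs (9.07 and 8.79 CPM against 4.08 and 5.58 CPM) and in hematopoietic cells (45.3 and 10.2 CPM against 4.01 and 4.35 CPM) was called higher too, with 2.99% of genes called in the latter. These rest on 24 to 52 and 9 to 32 UMIs a library, and free RNA as estimated would give up to 120% of the level in an EC library. The EC call was lost with DESeq2 and without control replicate 1, and the hematopoietic call without mutant replicate 1. In fibroblasts no factor was called by edgeR, where 1.14% of genes were, 2 had an unadjusted p under 0.05 and *Sox5* stood at 356 and 330.0 CPM against 437 and 371 CPM. *Foxa2* stayed at 0.616 CPM or less outside CHOs, below the count filter in every other type.

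**Figure D5:**
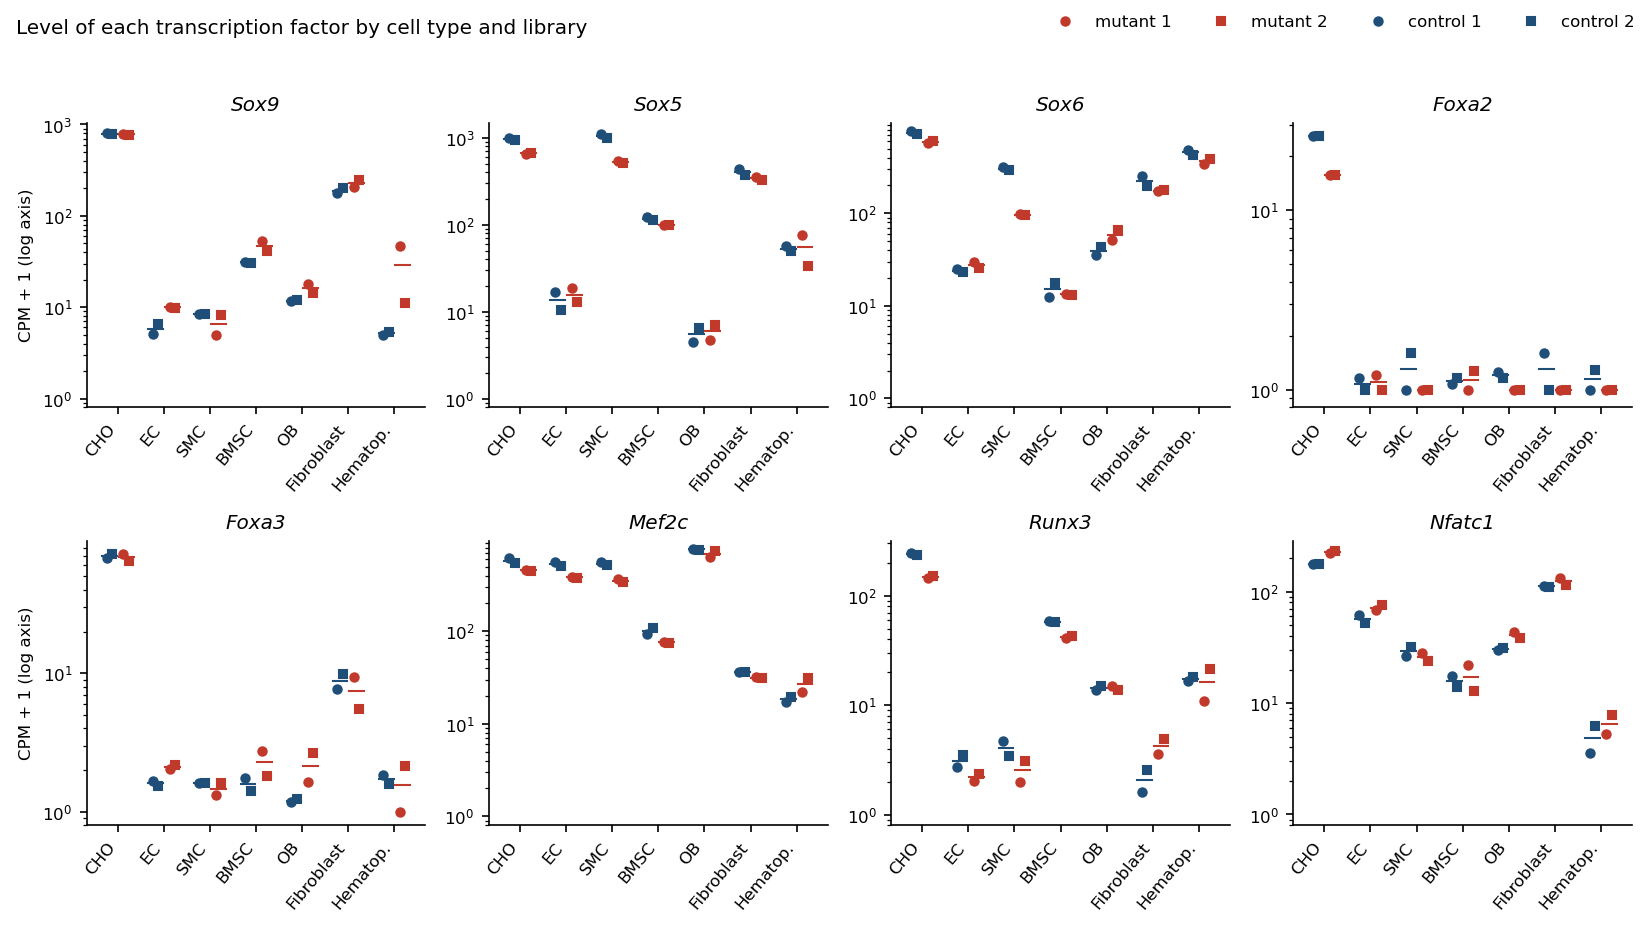
Level of each factor (y axis, CPM + 1 on a log axis, summed per library and type) in gated CHOs and the other gated cell types (x axis), with 1 point per library coloured by genotype. *Sox5* is high in CHOs, SMCs and fibroblasts, *Mef2c* in CHOs, ECs, SMCs and OBs, and *Foxa2* in CHOs alone among the types shown.

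The wider program was described with 4 lists of genes. In all CHOs their values mix zones that the genotypes held in unlike shares, and the lists were not compared with equal cells per zone. Late hypertrophic cells made up 22.0% of mutant and 3.15% of control CHOs on average. Of 20 cartilage matrix genes known as SOX9 targets, 18 were lower and 1 higher in mutant CHOs, with a median of −0.64 against −0.00 over all genes tested, of which 43.8% were called. Of the 20, 13 were markers that set the gates, so that their values helped to choose the cells. Among the 7 others 5 were lower and 1 higher (median −0.75). In deep articular cells 7 of the 19 tested were called, all of them higher and all of them gate markers, beside 3.3% of all genes, and in superficial cells 1 of 19, a gate marker and higher, beside 2.72%. In resting cells 4 of the 7 others were lower and 1 higher (median −0.26), beside 13.4% of all genes. Of the 20 matrix genes 13 were lower and 2 higher in columnar cells, beside 24.5% of all genes. In PHCHOs 13 were lower and 0 higher, beside 20.4%. Among the 7 that set no gate, 5 were lower and 2 higher in columnar cells, and 4 lower and 0 higher in PHCHOs. *Papss2*, which supplies sulfate donors for proteoglycans, stood at 452 ± 7.66 CPM (SD, n = 2) in the mutants and 932 ± 21.1 CPM in the controls (−0.99, adjusted p = 1.65e-08), and the gate markers *Col11a2* (−1.08) and *Col9a1* (−0.97) changed alike. Among 14 hypertrophy genes, 8 of them gate markers, 7 were higher and 4 lower (median 0.10), led by the gate markers *Vegfa* (1.96), *Mmp13* (1.31) and *Col10a1* (0.93). Of 16 relatives of the factors tested, 5 were higher and 7 lower (median −0.07), again beside 43.8% of all genes. *Sox4*, a SoxC gene, rose from 27.1 ± 2.27 to 42.3 ± 2.98 CPM (0.70, adjusted p = 1.82e-05), *Nfatc4* rose by 0.89 (adjusted p = 0.00169), and *Sox11* (1.46, adjusted p = 0.0176) had levels near 1 CPM. Of 24 other regulators of CHOs, 10 were higher and 7 lower (median −0.11), beside the same 43.8%. *Arid5a* (1.26, adjusted p = 1.13e-06) and *Arid5b* (0.95, adjusted p = 3.36e-06), coactivators of SOX9, rose, and *Nkx3-2* (−1.42, adjusted p = 0.0186) was near 1 CPM.

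Inside the hypertrophic zone 9 of 20 matrix genes were called, all lower (median −0.45 against −0.01 over all genes), 4 of them among the 7 that set no gate (median −0.76), with *Mia* at −0.97 (adjusted p = 0.00249) and the gate markers *Matn1* (−1.85) and *Col11a2* (−1.29). Of 14 hypertrophy genes 7 were lower and 1, the gate marker *Vegfa* (1.00), higher (median −0.65), and of the 6 that set no gate 2 were called, both lower (median −0.47). *Tnfsf11*, which encodes RANKL, stood at −1.32 (adjusted p = 0.0252) and the marker *Panx3* at −1.12. Of 10 relatives tested 1 was higher and 2 were lower. *Runx2*, the master regulator of hypertrophy and bone, stood at 448 ± 4.70 CPM (SD, n = 2) in the mutants and 1107 ± 169 CPM in the controls (−1.28, adjusted p = 0.000489), *Mef2a* fell by 0.82 (adjusted p = 0.00535), and *Nfatc2* rose by 1.32 (adjusted p = 0.0108). Of 17 other regulators 3 were higher and 1 was lower. *Creb5*, known for articular cartilage, stood at 98.2 ± 27.3 CPM against 14.9 ± 3.17 CPM (2.71, adjusted p = 0.000642), *Arid5a* rose by 2.08 (adjusted p = 0.0365), and *Sp7*, the osteoblast factor osterix, fell by 1.13 (adjusted p = 0.00541). In the hypertrophic zone 10.1% of all genes were called, 833 in number. Without either control library at most 20 genes were called, and with cells near the boundaries left out 150. Without a filter on low counts 0 genes were called in this zone, so each gene named here lost its call in that setting. Whether each kept it with cells near the boundaries left out was not computed. In late hypertrophic cells 16 of 20 matrix genes (median −1.16) and 12 of 14 hypertrophy genes (median −1.17) were lower, beside 28.2% of all genes called, 1670 higher and 1510 lower. Among those that set no gate, 5 of 7 matrix genes (median −1.08) and 6 of 6 hypertrophy genes (median −1.57) were lower.

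Last, each factor was set beside the genes whose log2(CPM + 1) followed it most closely over the 32 sums of 4 libraries and 8 zones, among 10796 genes with a mean of at least 5 CPM. These points share libraries, depth and the zone gates, so Pearson's r is a description. *Foxa2* ran with the gate markers *Pth1r* (0.974), the receptor of PTHrP, and *Matn1* (0.949), and with *Serinc5* (0.949). *Mef2c* ran with *Slc38a4* (0.96), *Grb14* (0.952) and *Lgmn* (0.948), *Foxa3* with *Ccrl2* (0.918), *Deptor* (0.901) and the gate marker *Ihh* (0.901), and *Runx3* with *Unc5c* (0.955), *Cdk6* (0.949) and *Sfxn1* (0.943). *Sox5* was followed by *Adcy2* (0.909), *Lrba* (0.886) and *Sobp* (0.883), *Sox6* by *Kcnma1* (0.877), *Irs1* (0.860) and *Usp6nl* (0.858), and *Sox9* by *Nfatc2* (0.857), *Pde4b* (0.809) and *Sdc4* (0.798). *Nfatc1* was followed by *Prss35* (0.846), *Klf4* (0.803) and *Klf9* (0.801). Among the factors themselves *Foxa2* and *Mef2c* (0.89), *Foxa2* and *Foxa3* (0.851), *Foxa3* and *Mef2c* (0.822) and *Sox5* and *Sox6* (0.776) ran closest, and *Sox9* was closer to *Nfatc1* (0.599) than to *Sox5* (0.334) or *Sox6* (0.365).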

How the data were processed

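Droplet-based scRNA-seq of non-hematopoietic bone cells was analysed in 2 mutant and 2 control libraries. The authors trimmed reads with cutadapt 3.5, aligned them with STARsolo 2.7.10a to GRCm39 (GENCODE annotation with the CreERT2 and reporter sequences added), counted UMIs in introns as well as exons, and deposited expected counts for every barcode without a filter, in which reads of several genes are shared out by expectation maximization. These are not normalized, and 9.09% to 9.95% of entries are fractions.

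Barcodes were kept with at least 1000 UMIs and 800 genes, a complexity of 0.8 or more, and no more than 15% of UMIs from mitochondria and 5% from hemoglobin. CHOs and other types were gated on the mean of log-scaled counts per 10000 UMIs of their markers, and zones on standardized scores of zone markers, with thresholds set after the score distributions were seen. No doublet caller was run. Barcodes past several gates, 5.33% of those past the CHO gate, were left out. The members and lists were chosen with earlier results of these data known. Expected counts were summed per library and zone, rounded, filtered with filterByExpr, scaled by TMM and tested with edgeR 4.0.16 (quasi-likelihood test, limma 3.58.1, R 4.3.3) in each zone on its own, with Benjamini-Hochberg adjustment over all genes tested and a threshold of 0.05. Standard errors come from the fold change and the F statistic. DESeq2 1.42.0, other filters and gates, Leiden clusters as zones (scanpy 1.11.5), a replicate block and each library left out were tried as alternatives, and leaving out 3 CHO clusters that took no zone was added after the data were seen. The scripts were tested on simulated data for 4 of the classes, where with gene-wise dispersions the share of false calls was above that of the threshold in each, so calls near 0.05 are less certain than their adjusted p.

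Zone sums held from 571375 UMIs (deep articular, control replicate 1) to 7292884 UMIs (columnar, control replicate 2), which sets the precision of each value, and replicates differed by more than sampling noise (chi-square per degree of freedom 2.95 in mutants and 2.86 in controls). The genes named are the 8 factors, the 3 largest called changes of each list in all CHOs and in the hypertrophic zone, and the 3 genes with the nearest pattern to each factor. The authors' own comparisons, protein sequences and the promoter of *Nfatc1* were not used here. Python 3.11.15, numpy 2.4.6, pandas 2.3.3 and matplotlib 3.10.9 were used for sums and figures.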

Additional observations from a re-analysis of the deposited data

Results flagged for a closer look

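In 5 of the 8 factors the difference between genotypes itself differed between zones of CHOs in edgeR's test of all genotype by zone terms (Benjamini-Hochberg adjusted p over 15012 genes, of which 15% were called). *Nfatc1* (adjusted p = 1.91e-05) ran from a log2 fold change of −0.15 in superficial cells to 1.08 in hypertrophic and 1.58 in cycling cells. *Sox5* (adjusted p = 3.16e-05) ran from 0.08 in superficial to −1.13 in late hypertrophic cells, and *Foxa2* (adjusted p = 0.00142), over the 5 zones in which it passed the count filter, from −0.02 in columnar to −2.01 in late hypertrophic cells. *Mef2c* (adjusted p = 0.0168) ran from 0.19 in columnar to −1.04 in hypertrophic cells. *Sox9* (adjusted p = 0.0329) ran from 0.09 in PHCHOs to 0.57 in hypertrophic cells, and its adjusted p was 0.236 with cells near the zone boundaries left out.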

How the results depend on the processing

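Of the called differences between genotypes, 365 values under the alternatives kept their direction and call, 79 kept the direction and lost the call, and none of them turned. Between neighbouring zones and over the zone terms, 91 kept their call and 29 lost it. In all CHOs, equal cells per zone changed the calls of *Sox9* (0.21) and *Sox6* (−0.12), and the other settings changed no call of a factor they tested. *Foxa2* was below the filter on detection in 20% of cells, so its call was not tested there. DESeq2 called 0 factors in deep articular, 1 in resting and 3 in columnar cells. Without a filter on low counts, 0 factors were called in hypertrophic and late hypertrophic cells and 2 in cycling cells. Stricter zone gates called 1 in resting and 0 in hypertrophic cells, and 1000 UMIs and 800 genes as the sole cell filter 0 in deep articular cells. With Leiden clusters as zones, 0 were called in deep articular, 4 in resting and 5 in late hypertrophic cells, and no cluster was hypertrophic. Leaving out 1 library at a time gave 0 to 1 factors called in superficial, 0 to 1 in deep articular, 1 to 3 in resting, 4 to 7 in columnar, 0 to 6 in pre-hypertrophic, 0 to 4 in hypertrophic and 1 to 2 in cycling cells. The values that turned sign were not called before or after, except *Mef2c* in resting cells, at −0.03 by gates and 1.02 (adjusted p = 1.34e-06 in edgeR) by Leiden clusters. It was 0.056 there with stricter gates, 0.090 without the 3 CHO clusters that took no zone, and −0.14 to 0.065 with 1 library left out. With Leiden clusters *Sox6* was −0.0070 in superficial and −0.10 in resting cells, *Foxa2* 0.41 in columnar cells, *Foxa3* 0.24 in PHCHOs and *Nfatc1* 0.17 in late hypertrophic cells. Stricter gates gave *Sox6* −0.025 in resting and *Runx3* 0.039 in late hypertrophic cells. Without the 3 clusters that took no zone, a setting chosen after seeing the data, *Sox6* was −0.0031 in superficial and *Runx3* 0.019 in late hypertrophic cells. Without a filter *Runx3* was 0.11 and *Nfatc1* 0.022 in late hypertrophic cells, a filter on detection in 20% of cells gave *Runx3* 0.051 there and *Foxa3* 0.011 in PHCHOs, and the sole cell filter gave *Foxa3* 0.0097 in PHCHOs. With 1 library left out, *Foxa3* ran from −0.061 to 0.10 in all CHOs and −0.080 to 0.068 in PHCHOs, *Sox6* from −0.0083 to 0.054 in superficial and −0.070 to 0.098 in resting cells, *Foxa2* from −0.064 to 0.020 in columnar cells, and in late hypertrophic cells *Runx3* from −0.11 to 0.15 and *Nfatc1* from −0.47 to 0.32. Stricter gates called *Mef2c* higher in late hypertrophic than in hypertrophic cells (0.71, adjusted p = 0.0324 in edgeR). Among 41 other uncalled differences between genotypes, 22 turned sign in some setting and 2 were called in 1 setting each, *Mef2c* in superficial cells without control replicate 1 (−0.44) and *Sox5* in ECs without mutant replicate 2 (0.54). Of 33 other uncalled zone steps and terms, 10 turned sign and 5 were called in some setting. The causes were not tested.

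Counts of genes called moved too. In all CHOs 8085 genes were called, against 4614 with DESeq2, 4232 with the detection filter and 5179 with equal cells. DESeq2 called 123 against 321 in superficial cells, 129 against 333 in deep articular, 605 against 1710 in resting, 1415 against 3223 in columnar, 1099 against 2476 in pre-hypertrophic, 374 against 833 in hypertrophic, 1695 against 3180 in late hypertrophic and 182 against 446 in cycling cells. Without a filter the counts were 722 in superficial, 596 in deep articular, 0 in hypertrophic, 441 in late hypertrophic and 770 in cycling cells. Stricter gates left 150 in hypertrophic and 294 in cycling cells, and Leiden clusters gave 210 in superficial, 1641 in pre-hypertrophic and 4800 in late hypertrophic cells. Leaving out a library moved them as well, in superficial cells to 160 and 149 without mutant replicate 1 and 2 and 582 and 694 without control replicate 1 and 2, in late hypertrophic cells to 1869, 2032, 1250 and 2087 in the same order, in deep articular cells to 600 without control replicate 1 and in cycling cells to 709 without mutant replicate 1. In pre-hypertrophic cells at most 16 were left without either mutant, and in hypertrophic cells at most 20 without either control.

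The replicate numbers are shared by the groups, but same-numbered libraries did not deviate together (correlations −0.0361 to 0.0472), so they were not taken as pairs. With the replicate number as a block, 2 factors were called in cycling cells, where *Foxa3* was 1.07 (1.04 and not called without the block), *Nfatc1* was called in resting cells (0.29), *Sox9* lost its call in hematopoietic cells, *Runx3* was 0.0024 in late hypertrophic cells, and 643 genes were called in superficial cells.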
